A study of Mus musculus with 12 samples.

Results

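The Cyp2b genes of the mouse encode cytochrome P450 enzymes of the endoplasmic reticulum that oxidise drugs, steroids and other lipophilic compounds. The members described here are 3 of the 12393 genes with a probe set of 1 symbol, taken as all probe sets of the deposited array table whose platform symbol was Cyp2b9, Cyp2b10 or Cyp2b13. They came to 5 of 22626 probe sets: 3 for Cyp2b10 (1422257_s_at, 1425645_s_at and 1451787_at), 1 for Cyp2b9 (1419590_at) and 1 for Cyp2b13 (1449479_at). They were matched by gene symbol.

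Expression was measured on 12 Affymetrix 3′ arrays from 12-week-old male C57BL/6N mice. Hepatocytes, the parenchymal cells of the liver, and a fraction labelled mesenchymal cells were each taken from mice that drank phenobarbital in their water (a daily 50 mg/kg over 14 days) and from mice on tap water alone. This gave 4 groups of 3 arrays, and no group carried a transgene or mutation according to the labels. The labels do not say how many animals stood behind an array or how the cells were isolated, so p-values measure only the spread between these samples, which may be technical. Values are log2 expression from RMA, and a difference of 1 is a doubling. A probe set was called at a Benjamini-Hochberg adjusted p under 0.05 in limma, a linear model fitted over all 22626 probe sets.

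Phenobarbital is a barbiturate that acts in hepatocytes through the nuclear receptor CAR, encoded by Nr1i3. CAR is held in the cytoplasm and moves to the nucleus when phenobarbital interferes with signalling from the EGF receptor. With its partner RXR it binds a distal enhancer of Cyp2b10, which is the standard readout of CAR activity in mouse liver. Cyp2b9 and Cyp2b13 are known as female-predominant genes that growth hormone pulses, acting through STAT5b, keep low in the male liver.

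The 3 genes lie in one Cyp2 gene cluster on chromosome 7. In RefSeq annotation of GRCm38.p6, Cyp2b10 spans chr7:25897658-25926624, Cyp2b13 spans chr7:26061388-26096197 and Cyp2b9 spans chr7:26173350-26210661. The 250 bases before the start site were read from the RefSeq promoter table of that build, where all 3 genes were matched. They are printed because the members differed in response and the sequences show how close the 3 genes are to each other. All are plus strand, at chr7:25897408-25897657 for Cyp2b10, chr7:26173159-26173408 for Cyp2b9 and chr7:26061245-26061494 for Cyp2b13. The start sites of this table lie inside the annotated spans of Cyp2b9 and Cyp2b13. Capitals mark matches on either strand to AGGTCA, the half-site of nuclear receptors, and to TTGCNNAA, a C/EBP-like motif.
Cyp2b10: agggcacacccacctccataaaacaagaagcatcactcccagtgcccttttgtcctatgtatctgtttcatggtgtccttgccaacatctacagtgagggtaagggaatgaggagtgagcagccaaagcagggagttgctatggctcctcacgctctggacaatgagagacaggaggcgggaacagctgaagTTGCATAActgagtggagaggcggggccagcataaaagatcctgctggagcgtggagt
Cyp2b9: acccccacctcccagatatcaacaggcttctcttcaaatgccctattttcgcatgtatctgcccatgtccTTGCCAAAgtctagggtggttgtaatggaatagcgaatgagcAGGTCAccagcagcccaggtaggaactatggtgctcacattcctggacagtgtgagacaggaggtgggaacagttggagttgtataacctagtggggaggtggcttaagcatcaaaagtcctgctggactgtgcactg
Cyp2b13: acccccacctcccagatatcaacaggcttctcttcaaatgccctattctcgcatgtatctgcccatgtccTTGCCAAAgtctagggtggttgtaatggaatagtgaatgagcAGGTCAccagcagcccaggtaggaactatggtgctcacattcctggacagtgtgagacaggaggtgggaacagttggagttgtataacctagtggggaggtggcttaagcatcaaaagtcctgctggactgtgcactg

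The windows of Cyp2b9 and Cyp2b13 were identical at 248 of 250 positions. Counted from 1 at the 5′ end of the window, with the base of Cyp2b13 first and that of Cyp2b9 second, the differences were C48T and T104C. Aligned with gaps, each of them matched Cyp2b10 at 182 of 260 alignment columns, or 70.0%. The AGGTCA match stood at window positions 113 to 118 in Cyp2b9 and Cyp2b13, and the Cyp2b10 window held none. Over 32851 windows of the same length in the table, 14.0% held AGGTCA. The TTGCNNAA match stood at positions 193 to 200 in Cyp2b10 and at positions 71 to 78 in the other pair, against 9.56% of all windows that held one. The motif TATAAA was in none of the 3 windows and in 12.4% of all windows. The motifs do not overlap in these windows, and the matches are a description of letters, not binding sites. The distal enhancer of Cyp2b10 lies outside them.

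Before the results, some arrays need naming. Vehicle array 1 of both populations stood apart in circadian genes: Dbp, a clock output gene, was at 6.21 and 6.52 there and between 11.60 and 12.15 on the other 10 arrays. The main results that use these arrays are also given without them. Phenobarbital mesenchymal array 1 had the highest mean of 15 measured hepatocyte markers among the 6 mesenchymal arrays, 10.47. The other 5 had 8.49, 9.64, 9.49, 9.29 and 9.07. Hepatocyte arrays held all 15 of these markers above the 40th percentile of the array, with means of 13.37 to 13.62. The mesenchymal arrays held all 12 Kupffer cell markers and all 15 sinusoidal endothelial markers above that percentile, and between 7 and 8 of 13 stellate cell and fibroblast markers. They also held 8 to 9 of 10 T and NK cell markers and 2 to 3 of 3 neutrophil markers above it. The neutrophil mean was 10.37 on phenobarbital mesenchymal array 2 and 6.44 to 8.53 on the other mesenchymal arrays. Arrays of one group correlated at r of 0.989 to 0.996 over all probe sets. Precision is limited by having 3 arrays in each group.

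**Figure D1:**
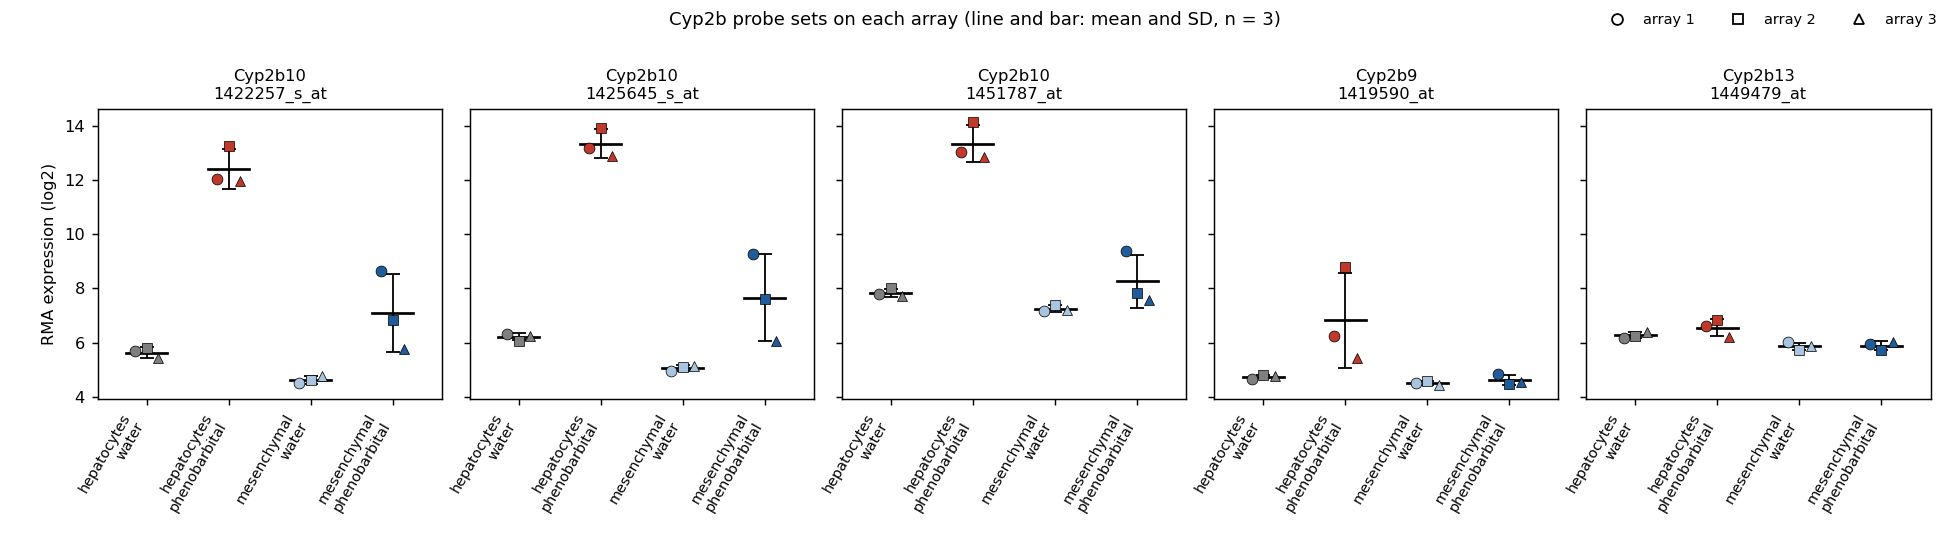
RMA expression (log2, vertical axis) of the 5 Cyp2b probe sets on each of the 12 arrays, by cell population and treatment. Each point is 1 array, with its shape giving the replicate number, and the line and bar are the mean and SD of 3 arrays. All 3 Cyp2b10 probe sets reach 11.97 or more in treated hepatocytes, Cyp2b9 runs from 5.41 to 8.80 there, and Cyp2b13 stays between 5.71 and 6.83 on all arrays.

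Phenobarbital raised Cyp2b10 in hepatocytes, and by more than any other probe set on the array. Probe set 1425645_s_at read 6.33, 6.07 and 6.24 on the vehicle hepatocyte arrays 1, 2 and 3, and 13.21, 13.95 and 12.92 on the phenobarbital ones. All treated arrays lay far above all vehicle arrays, and the gap between the groups was many times the range within either. The log2 difference was 7.15 (SE 0.23), 142-fold on the linear scale, and its limma adjusted p of 9.12e-06 was the smallest of all probe sets. Probe set 1422257_s_at went from 5.69, 5.79 and 5.41 to 12.04, 13.26 and 11.97, higher by 6.79 (SE 0.31, limma adjusted p 8.40e-05), which is 111-fold. Probe set 1451787_at went from 7.80, 8.01 and 7.72 to 13.06, 14.15 and 12.87, higher by 5.52 (SE 0.29, limma adjusted p 0.000186), which is 45.8-fold. The 3 probe sets agreed on the order of the treated arrays but not of the vehicle arrays, and the lowest difference came from the probe set with the highest vehicle values. That probe set was above the 40th percentile on all vehicle hepatocyte arrays. The other Cyp2b10 probe sets were below it on all of them, so their fold values rest on a low vehicle signal. 1425645_s_at and 1422257_s_at are of the kind that Affymetrix marks _s_at, whose probes match more than one transcript. The highest value of any probe set was 14.90 to 15.16 on each array, above all treated Cyp2b10 values.

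Of the 5 Cyp2b probe sets, 3 were called higher in hepatocytes, against 0.0221% of all probe sets called higher, or 5 in all. The other 2 belonged to Cyp2c29 and Cyp2c55. In either direction 0.0398% of probe sets were called, or 9. With 1 array left out at a time the 3 Cyp2b10 probe sets were called in 6 of 6 fits, with log2 differences between 5.12 and 7.37. Without vehicle array 1 they were 6.82, 7.21 and 5.49 for 1422257_s_at, 1425645_s_at and 1451787_at.

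Cyp2b9 showed a wide spread in the treated hepatocytes. It read 4.66, 4.795 and 4.74 on the vehicle arrays, and 6.24, 8.80 and 5.41 on phenobarbital arrays 1, 2 and 3. The treated arrays all lay above the vehicle arrays, as they did for 7.14% of all probe sets, and only treated array 2 exceeded the 40th percentile of its array. Against the vehicle mean, treated array 2 was 16.8-fold higher, array 1 was 2.83-fold higher and array 3 was 1.60-fold higher. The log2 difference of 2.08 (SE 0.71, 95% confidence interval 0.47 to 3.69) had an unadjusted p of 0.0172 and a limma adjusted p of 0.602, so Cyp2b9 was not called. Without treated array 2 the difference was 1.09 (limma adjusted p 0.592), and without vehicle array 1 it was 2.05.

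Cyp2b13 did not separate the groups. It read 6.18, 6.23 and 6.39 on the vehicle hepatocyte arrays and 6.60, 6.83 and 6.20 on the treated ones. Treated array 3 lay inside the vehicle range, and treated array 2 alone exceeded the 40th percentile of its array. The log2 difference was 0.28 (SE 0.17, 95% confidence interval −0.11 to 0.67), with a limma adjusted p of 0.745, and 0.23 without vehicle array 1. The interval leaves room for a rise of up to 0.67 on the log2 scale.

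Treated hepatocyte array 2 was the highest and treated array 3 the lowest in all 5 Cyp2b probe sets. The distance from the lowest to the highest treated array was 3.39 for Cyp2b9, between 1.03 and 1.29 for the Cyp2b10 probe sets and 0.63 for Cyp2b13. The hepatocyte marker mean did not single out array 2, at 13.37, 13.41 and 13.50 on treated arrays 1, 2 and 3. Markers of other cells were low on the hepatocyte arrays: Kupffer cell markers averaged 5.91 to 6.53 in treated and 6.25 to 6.31 in vehicle hepatocytes, against 13.60 to 14.03 in treated mesenchymal cells. On treated hepatocyte arrays 1, 2 and 3 the Kupffer cell mean was 6.08, 5.91 and 6.53 and the sinusoidal endothelial mean 6.42, 6.16 and 6.63. Array 2 was thus the lowest and array 3 the highest in both, the reverse of the Cyp2b order. The other marker lists did not share that order. Array 2 was also lowest for T and NK cell, cholangiocyte and neutrophil markers, but array 1 was highest there. Stellate cell and fibroblast markers were lowest on array 1 and B cell markers on array 3. The part of other cells in the spread of Cyp2b9 was not tested. In bulk RNA, fewer cells of a type and less RNA per cell cannot be told apart.

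**Figure D2:**
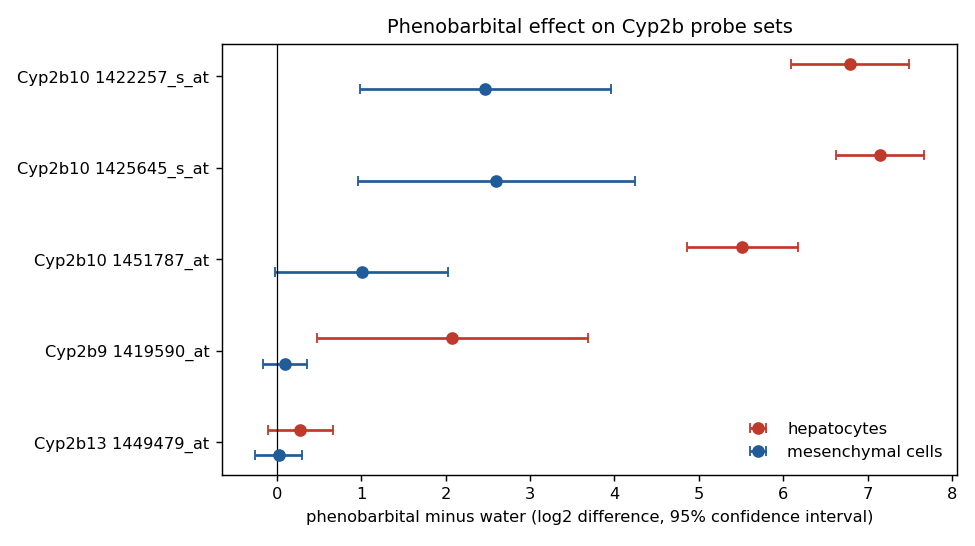
Phenobarbital minus water (log2 difference, horizontal axis) for each Cyp2b probe set in hepatocytes and mesenchymal cells, from limma, with 95% confidence intervals and 3 arrays in each group. The Cyp2b10 differences are 5.52 to 7.15 in hepatocytes and 1.004 to 2.60 in mesenchymal cells. The interval of Cyp2b13 includes 0 in both populations.

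In the mesenchymal fraction all 3 Cyp2b10 probe sets were higher on every phenobarbital array than on every vehicle array, without passing the threshold. Probe set 1425645_s_at read 4.94, 5.10 and 5.12 on vehicle arrays 1, 2 and 3, and 9.29, 7.63 and 6.06 on the phenobarbital arrays. Probe set 1422257_s_at read 4.48, 4.61 and 4.77 against 8.65, 6.85 and 5.77. Probe set 1451787_at read 7.18, 7.40 and 7.19 against 9.39, 7.82 and 7.57. Array 1 was the highest and array 3 the lowest of the treated arrays in each, and the groups did not overlap, as was the case in this direction for 3.73% of all probe sets. The treated arrays spread by 1.82 to 3.23 from lowest to highest, the vehicle arrays by 0.18 to 0.29.

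The log2 differences of Cyp2b10 in mesenchymal cells were 2.60 (SE 0.70, 95% confidence interval 0.96 to 4.25) for 1425645_s_at, 2.47 (SE 0.63, 0.98 to 3.96) for 1422257_s_at and 1.004 (SE 0.43, −0.016 to 2.02) for 1451787_at. Their unadjusted p-values in limma were 0.00706, 0.00558 and 0.0527. No Cyp2b probe set was called, and 0% of all probe sets were: the limma fit called 0 of 22626, while 770 had an unadjusted p under 0.05. The limma adjusted p was 0.9997 for all 5. Without vehicle mesenchymal array 1 the differences were 2.55, 2.40 and 0.97, and none was called. Cyp2b9 read 4.49, 4.59 and 4.43 against 4.83, 4.47 and 4.52, a log2 difference of 0.10 (SE 0.11). Cyp2b13 read 6.00, 5.73 and 5.85 against 5.93, 5.71 and 6.02, a log2 difference of 0.02 (SE 0.12). The groups overlapped for both genes, and every mesenchymal array had them below the 40th percentile of the array.

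Hepatocyte transcripts were present on the mesenchymal arrays and were read beside Cyp2b10. The mean of the 15 hepatocyte markers was 8.49, 9.64 and 9.49 on vehicle arrays 1, 2 and 3 and 10.47, 9.29 and 9.07 on the phenobarbital arrays, so the groups overlapped. The log2 of their summed linear level was 14.27 to 15.22 in vehicle and 14.63 to 15.90 in treated arrays, against 17.75 to 17.88 in vehicle hepatocytes. Between 12 and 14 of the 15 markers were above the 40th percentile on the mesenchymal arrays. The difference in the marker mean was 0.40 (exact two-sided permutation test, p = 0.6, n = 3 against 3, where 0.1 is the smallest p possible), with 14 of 15 markers positive and none called. Phenobarbital array 1 was the highest in both the markers and Cyp2b10. Without it the marker difference was −0.029, and Cyp2b10 differed by 1.79 (1425645_s_at), 1.69 (1422257_s_at) and 0.44 (1451787_at). Hepatocytes themselves held more Cyp2b10 under phenobarbital, by 5.52 to 7.15. Equal marker means would thus not mean equal Cyp2b10 from hepatocyte RNA. Without vehicle array 1 the marker difference was 0.046.

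Each mesenchymal array was also set against the hepatocyte mean of the same treatment. Treated mesenchymal arrays 1, 2 and 3 lay at −4.07, −5.73 and −7.30 on the log2 scale for 1425645_s_at. The median over the 15 hepatocyte markers was −3.34, −4.36 and −4.61 on these arrays. Array 1 was nearest to hepatocytes and array 3 farthest by both measures, and Cyp2b10 lay farther below hepatocytes than the median marker did on each. The other Cyp2b10 probe sets lay at −3.77, −5.57 and −6.65 (1422257_s_at) and at −3.97, −5.54 and −5.79 (1451787_at). In vehicle mice the 3 probe sets lay at −0.45 to −1.27 and the marker median at −4.19 to −5.53. There, 1422257_s_at and 1425645_s_at were below the 40th percentile on every vehicle array of both populations, so their signal was low. Their small distances therefore do not show that the mesenchymal fraction expressed Cyp2b10 nearly as hepatocytes did. Probe set 1451787_at was above that percentile on every vehicle array. How much of the Cyp2b10 signal in the mesenchymal fraction came from hepatocyte RNA was not tested.

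**Figure D3:**
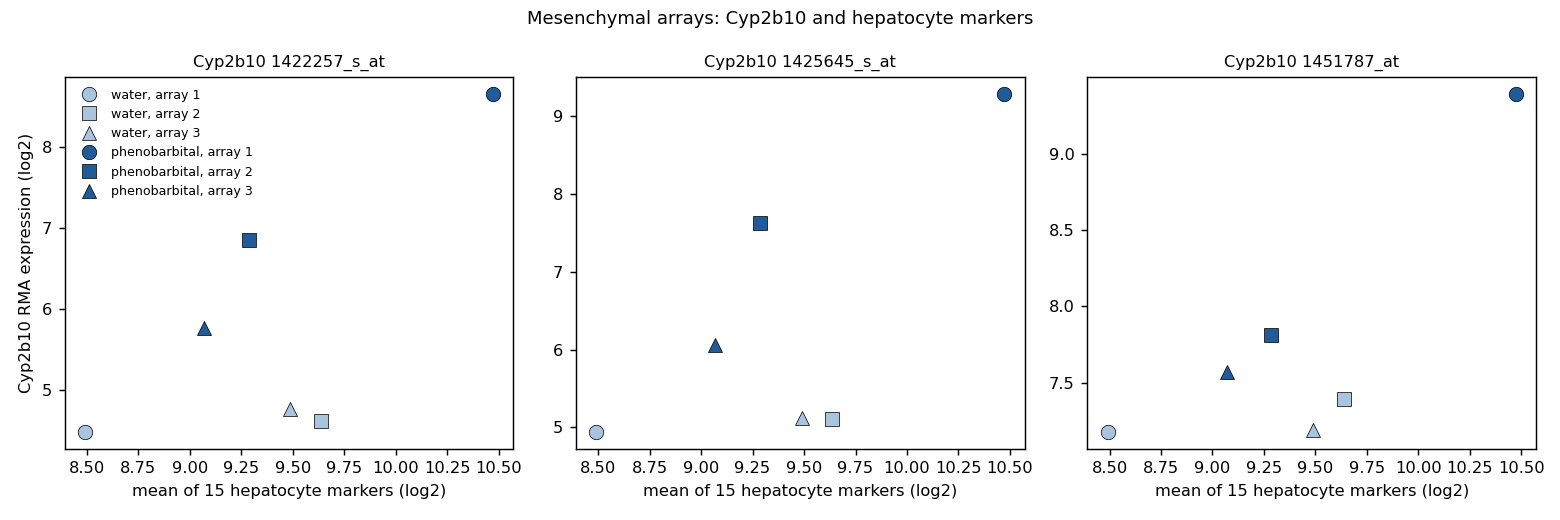
Cyp2b10 RMA expression (log2, vertical axis) against the mean of 15 hepatocyte markers (log2, horizontal axis) on the 6 mesenchymal arrays, with 1 panel for each Cyp2b10 probe set and 1 point for each array. Phenobarbital array 1 is highest on both axes, and phenobarbital arrays 2 and 3 lie above all vehicle arrays in Cyp2b10 at marker means inside the vehicle range. The part of hepatocyte RNA in the Cyp2b10 signal was not tested.

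The phenobarbital difference of Cyp2b10 in hepatocytes exceeded that in the mesenchymal fraction by 4.54 (SE 0.81) for 1425645_s_at, 4.32 (SE 0.78) for 1422257_s_at and 4.51 (SE 0.58) for 1451787_at on the log2 scale. These were differences of differences in 1 limma fit over all 12 arrays. None was called, with adjusted p-values of 0.433, 0.433 and 0.121 and unadjusted p-values of 0.000119, 0.000134 and 5.36e-06. No probe set at all was called higher in this comparison, a background of 0%, with 1245 at an unadjusted p under 0.05 in either direction. Without phenobarbital mesenchymal array 1, the one richest in hepatocyte markers, all 3 were called. The differences were then 5.36, 5.10 and 5.08, with limma adjusted p-values of 0.00358, 0.00358 and 0.000861. This was the only 1 of 12 fits with 1 array left out that called them. In the others their limma adjusted p-values reached 0.991, 0.991 and 0.586. For Cyp2b9 the difference of effects was 1.98 (SE 0.85, limma adjusted p 0.884), and for Cyp2b13 it was 0.25 (SE 0.22, limma adjusted p 0.933). Without vehicle array 1 of either population the 3 Cyp2b10 values stayed between 4.35 and 4.60, those of Cyp2b9 were 1.95 and 1.99 and those of Cyp2b13 were 0.21 and 0.18.

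Between the populations, the Cyp2b genes were compared within each treatment. Under phenobarbital, the mesenchymal arrays were lower than the hepatocyte arrays by 5.70 (SE 0.57) for 1425645_s_at, 5.33 (SE 0.55) for 1422257_s_at and 5.10 (SE 0.41) for 1451787_at, or 52.0-, 40.2- and 34.3-fold. Cyp2b9 was lower by 2.21 (SE 0.60) and Cyp2b13 by 0.66 (SE 0.15). All 5 were called lower, with limma adjusted p-values from 2.05e-07 to 0.00489, beside 45.3% of all probe sets called lower in this comparison.

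Under water, 1 of the 5 was called lower in mesenchymal cells, beside 43.1% of all probe sets. That was Cyp2b13, with a log2 difference of −0.40 (SE 0.15, limma adjusted p 0.0300). The Cyp2b10 probe sets were lower by 1.16 (SE 0.57), 1.01 (SE 0.55) and 0.59 (SE 0.41) for 1425645_s_at, 1422257_s_at and 1451787_at, with limma adjusted p-values of 0.0847, 0.115 and 0.210. Without vehicle array 1 of hepatocytes they were lower by 1.10, 0.98 and 0.61, and without that of mesenchymal cells by 1.10, 0.94 and 0.55, again not called. Without treated mesenchymal array 1, however, 1425645_s_at and 1422257_s_at were called (limma adjusted p-values 0.00901 and 0.0165), and likewise without treated mesenchymal array 3 (0.0117 and 0.0458). In each of the 5 Cyp2b probe sets the 3 vehicle mesenchymal arrays lay below the 3 vehicle hepatocyte arrays. The share of all probe sets split in this way was not computed, and 43.1% of them were called lower. The split therefore cannot be read as particular to the Cyp2b genes. The 12-array fit pools the wide spread of the treated mesenchymal arrays into these errors. On the 6 vehicle arrays alone, a fit chosen after the values were seen, the errors were 0.11, 0.13 and 0.12 and all 3 were called, with limma adjusted p-values of 3.46e-05, 0.000215 and 0.00257. Cyp2b9 was called in that fit too, at −0.23 (SE 0.08, limma adjusted p 0.0389). With treatment and replicate number together as a block, 1425645_s_at had a limma adjusted p of 0.0495 and the call of Cyp2b13 was lost (limma adjusted p 0.0629). It was also lost without vehicle hepatocyte array 2 or 3 or vehicle mesenchymal array 2 or 3 (limma adjusted p-values from 0.0521 to 0.104). Setting the array medians equal called 1425645_s_at (−1.37, limma adjusted p 0.0398).

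The neighbours of the family on chromosome 7 were read in the same fit. RefSeq lists 17 Cyp2 genes there, 13 protein-coding and 4 pseudogenes, and 8 had a probe set of their symbol alone. Among Cyp2 genes, the only ones listed here, Cyp2b10 lies next to Cyp2s1, and between Cyp2b10 and Cyp2b13 lie the pseudogenes Cyp2b28-ps and Cyp2b27-ps. Of the 5 measured neighbours outside the family members described here, none was called in either population. Cyp2s1 differed by 0.10 (SE 0.20) in hepatocytes. Cyp2b19, a Cyp2b gene known from skin keratinocytes, read 3.82 to 4.07 in vehicle and 4.05 to 4.19 in treated hepatocytes, a log2 difference of 0.14 (SE 0.11). Cyp2a12, which hydroxylates steroids, differed by 0.08 (SE 0.06) and Cyp2f2, a P450 of lung and liver, by 0.07 (SE 0.07). Both sat at 13.38 or more on all hepatocyte arrays. Cyp2g1, a P450 best known from olfactory mucosa, read 6.42, 7.95 and 8.10 on vehicle hepatocyte arrays 1, 2 and 3 and 7.33, 8.95 and 9.05 on the treated ones, a log2 difference of 0.95 (SE 0.54, limma adjusted p 0.731). It was 0.42 (SE 0.44) without vehicle array 1, and Cyp2s1 was then at −0.072. Cyp2a4 and Cyp2a5 share 1 probe set and were not measured apart, and Cyp2b23 was not analysed here.

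**Figure D4:**
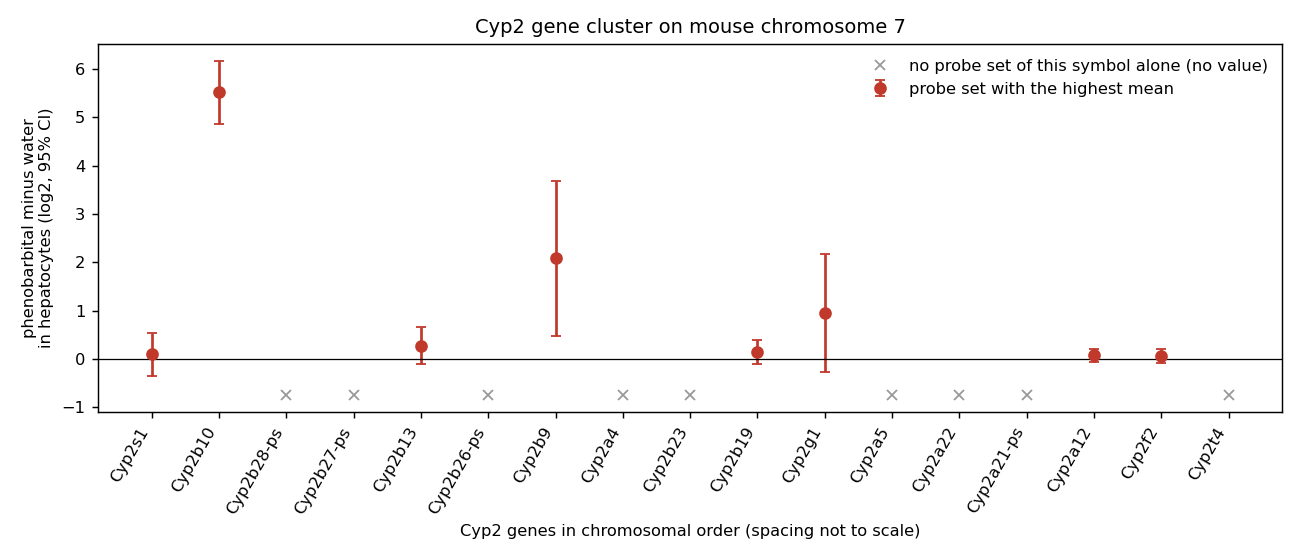
Phenobarbital minus water in hepatocytes (log2, vertical axis) for the 17 Cyp2 genes of the chromosome 7 cluster in their order along the chromosome, with 95% confidence intervals from limma and 3 arrays in each group. Crosses mark genes without a value. Cyp2b10 stands at 5.52 and the next Cyp2 gene on its left, Cyp2s1, at 0.10.

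The receptor and its control genes showed no called change in hepatocytes. Of 23 genes listed as CAR, its partners and its control, 19 were measured and none was called in either direction, with 7 positive and 12 negative differences and a median of −0.06, against 0.01 over all probe sets. Nr1i3 itself differed by 0.01 (SE 0.41), from 7.98 to 9.57 in vehicle and 8.43 to 9.42 in treated hepatocytes, with the lowest value on vehicle array 1. Without that array the difference was −0.49 (SE 0.24, limma adjusted p 0.752), and still none of the 19 was called. The related receptor PXR (Nr1i2) differed by 0.21 (SE 0.10) and the partner Rxra by −0.06 (SE 0.09). The 3 members with the smallest p were the EGF receptor gene Egfr at −0.59 (SE 0.13, limma adjusted p 0.431), the hepatocyte transcription factor Cebpa at 0.27 (SE 0.09, limma adjusted p 0.612) and the coactivator Ncoa3 at −0.34 (SE 0.14, limma adjusted p 0.644). Nr1i3 was at 4.82 to 5.41 on the mesenchymal arrays, below the 40th percentile of all 12 arrays (6.54 to 6.68).

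Among other CAR-induced genes, Cyp2c55 and Cyp2c29 rose in hepatocytes. Of the 16 listed P450 genes and partners, 13 were measured and 2 were called in hepatocytes, both higher, with 11 positive differences and a median of 0.31. Cyp2c55, an arachidonic acid hydroxylase, rose by 3.46 (SE 0.31, limma adjusted p 0.00961) and Cyp2c29 by 1.49 (SE 0.11, limma adjusted p 0.00365). Alas1, which starts haem synthesis, differed by −0.57 (SE 0.25). Without vehicle array 1, Cyp2c55 was at 3.63, Cyp2c29 at 1.41 and Alas1 at −0.86, and Cyp2c54 was called as well (1.68, SE 0.19, limma adjusted p 0.0328). That fit called 11 of 22626 probe sets. In mesenchymal cells none of the 13 was called, 12 were positive and the median was 0.76 (0.51 without vehicle array 1), while the hepatocyte markers there had a median of 0.52. No probe set carries the symbol of the reductase Por alone, and it was not analysed here.

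**Figure D5:**
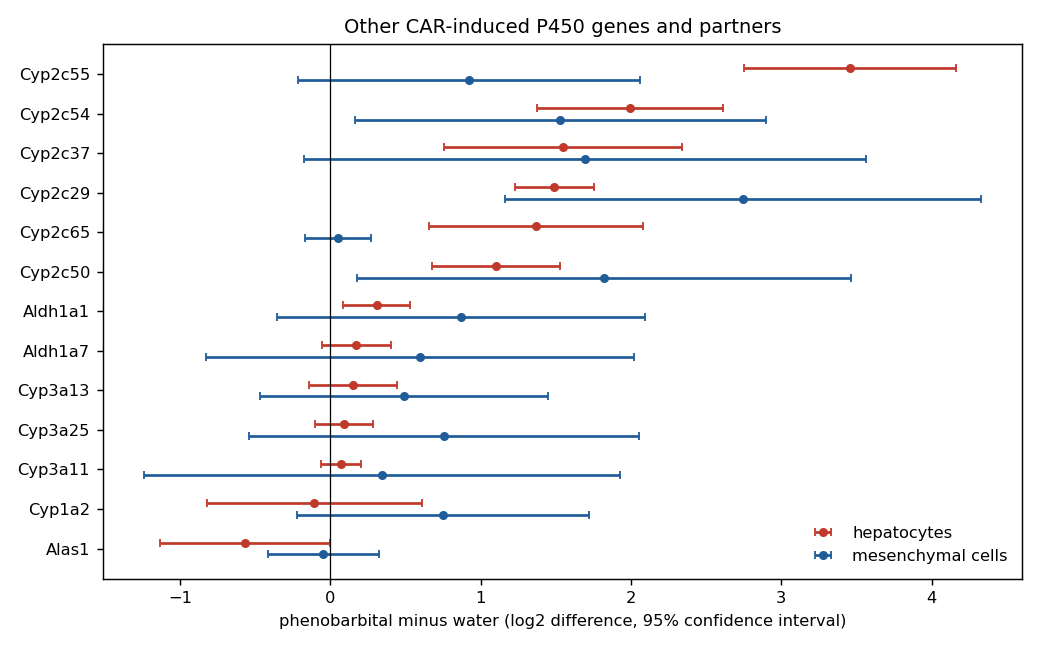
Phenobarbital minus water (log2 difference, horizontal axis) for the 13 measured CAR-induced P450 genes and partners in hepatocytes and mesenchymal cells, from limma, with 95% confidence intervals and 3 arrays in each group. In hepatocytes Cyp2c55 leads at 3.46, and most intervals are wider in the mesenchymal fraction.

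Among 23 listed conjugation and transport genes linked to CAR, 17 were measured and none was called, with 16 positive differences in hepatocytes and a median of 0.39. The smallest p-values belonged to the glutathione transferases Gstt1 (0.52, SE 0.09, limma adjusted p 0.230) and Gstt3 (1.25, SE 0.29, limma adjusted p 0.451) and to the sulfotransferase Sult1a1 (0.34, SE 0.07, limma adjusted p 0.322). This list, too, was positive in mesenchymal cells, in 13 of 17 genes with a median of 0.63, or 0.39 without vehicle array 1. None was called in hepatocytes without vehicle array 1 either, where 15 of 17 were positive.

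Cyp2b9 and Cyp2b13 belong to the female-predominant genes of the liver, so other genes with a known sex bias were read in the same fit. Of 19 female-biased genes, 10 were measured, none was called and 8 had positive differences in hepatocytes, with a median of 0.19. Cyp17a1, a steroid hydroxylase, differed by 0.94 (SE 0.12, limma adjusted p 0.0838), Acot3, an acyl-CoA thioesterase, by 0.91 (SE 0.32, limma adjusted p 0.612) and the transporter Slc22a26 by 0.28 (SE 0.15, limma adjusted p 0.712). Of 17 male-biased genes, 11 were measured, none was called and 10 had negative differences, with a median of −0.19. The complement gene C6 differed by −0.64 (SE 0.10, limma adjusted p 0.150), the oxysterol hydroxylase Cyp7b1 by −0.69 (SE 0.18, limma adjusted p 0.522) and the steroid dehydrogenase Hsd3b5 by −0.66 (SE 0.23, limma adjusted p 0.611). Neither list had a called gene without vehicle array 1, and the medians were 0.18 and −0.18. Acot3 was then at 0.58.

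Of the genes that carry or answer the growth hormone signal, none was called on all arrays, and Bcl6 was called without vehicle array 1. Of 17 listed, 16 were measured, with 5 positive and 11 negative differences in hepatocytes and a median of −0.09. Onecut1, a hepatocyte transcription factor, differed by −1.16 (SE 0.18, limma adjusted p 0.126), the STAT5 target Cish by −1.39 (SE 0.25, limma adjusted p 0.230) and the repressor Bcl6 by 1.78 (SE 0.34, limma adjusted p 0.295). Vehicle array 1 was the highest vehicle array for Bcl6, at 9.31 against 7.65 and 8.38, and the treated arrays ran from 10.07 to 10.39. Without that array Bcl6 was higher by 2.21 (SE 0.20, limma adjusted p 0.00732), Cish was at −1.15 and Onecut1 at −1.12. That fit called 11 of 22626 probe sets. Stat5b differed by −0.07 (SE 0.17) on all arrays, and by 0.13 without vehicle array 1.

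Likeness to a family member was measured as Pearson's r over the 12 arrays, among 10489 probe sets of 1 symbol that ranged over at least 1 log2 unit. The 12 arrays share 4 groups, so they are not independent points. Over the 10 arrays left without vehicle array 1 of both populations, r was 0.846 to 0.973 for the 15 pairs below. Closest to Cyp2b10 (1451787_at) were Cyp2c55 (r = 0.923), Bcl6 (0.901), Cyp2c65 (0.886), Ncam1 (0.876) and Acan (0.868). Spearman's rho, a correlation of ranks, was 0.874, 0.685, 0.699, 0.636 and 0.657 for these genes in the same order. Cyp2c65, Ncam1 and Acan reached the range of 1 log2 unit only through the treated hepatocyte arrays, where Cyp2b10 was high. Closest to Cyp2b9 were Ubd (r = 0.932), Serpinb1a (0.921), Sult3a1 (0.910), Slc22a27 (0.889) and Cyp2b10 itself (0.853). Treated hepatocyte array 2 was the highest of all 12 arrays in these first 4. Ubd read 6.11 there and 4.44 to 4.67 elsewhere. Sult3a1, a sulfotransferase of the female-biased list, read 5.33 there and 3.32 to 4.12 elsewhere. Cyp2b9 was itself highest on that array, so genes chosen by r with it share the peak through the choice. Ubd, Sult3a1 and Slc22a27 reached the range of 1 log2 unit only through that array, and Serpinb1a only through the treated hepatocyte arrays. Spearman's rho was 0.580 for Ubd, 0.706 for Serpinb1a, 0.650 for Sult3a1 and 0.615 for Slc22a27. Closest to Cyp2b13 were Mycl (r = 0.952), Nr4a3 (0.941), Elmod3 (0.940), Gprc6a (0.937) and Hoxc6 (0.937). Nr4a3, Elmod3 and Gprc6a reached the range of 1 log2 unit only through the treated hepatocyte arrays. All of the Cyp2b13 set were, as Cyp2b13 was, higher on every hepatocyte array than on every mesenchymal one. They were chosen by r with Cyp2b13 over these arrays, so this split comes with the choice. It was not counted over all probe sets, of which 43.1% were called lower in mesenchymal cells under water and 45.3% under phenobarbital.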

How the data were processed

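RNA was labelled by Affymetrix 3′ IVT, 1 array a sample, per the labels' protocols. Log2 values of 22626 probe sets and 12 arrays were deposited. The authors made these log2 values with RMA, per the submitters' processing notes; its version is not given in the sources used. RMA makes array distributions alike, so a shift of most genes would be removed. Symbols came from the platform annotation (20380 probe sets with 1 symbol, 691 with several, 1555 with none), and other genes stood by their probe set with the highest mean.

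Groups came from sample titles. Phenobarbital was compared within each population on its own 6 arrays, and other comparisons used all 12 arrays, in limma 3.58.1 (R 4.3.3) with an intensity trend. No filter on low values was applied, so every member was tested; 40th percentile filtering was an alternative. Named list genes were those called or, where none was, the 3 with the smallest p in hepatocytes, plus Nr1i3, Nr1i2, Rxra, Alas1, Stat5b, Bcl6, Cyp2b19 and, where measured, Por, Cyp2b23, Cyp2a4 and Cyp2a5; the measured cluster genes were all named, and likeness named 5 genes a member. Values for single arrays of other genes were picked after they were seen. Members and lists were chosen with earlier results of these data known. Deviations of same-numbered vehicle hepatocyte and mesenchymal arrays correlated at 0.192, 0.159 and 0.148, and each hepatocyte array matched its own number best. Same-numbered arrays of other pairs of groups ran from −0.227 to 0.167, the last for array 3 of vehicle and treated mesenchymal cells. The labels do not say whether equal numbers mean the same animal. No 2 arrays were identical. The fits were tested on simulated data. Promoters were aligned with Biopython 1.88.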

Additional observations from a re-analysis of the deposited data

How the results depend on the processing

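The calls of the 3 Cyp2b10 probe sets in hepatocytes, and of all 5 Cyp2b probe sets between populations under phenobarbital, held under every alternative run that could give a value. These were a filter on low values, 1 probe set per gene, no intensity trend, equal array medians, a replicate block, all arrays or only the 2 groups in the fit, and each array left out. The filter removed Cyp2b9 and Cyp2b13 throughout and, in the mesenchymal comparison, 1422257_s_at and 1425645_s_at. Elsewhere these 2 Cyp2b10 probe sets passed it only through treated arrays. They exceeded its cut-off on 3 treated hepatocyte arrays, 2 treated mesenchymal arrays and 0 vehicle arrays. The filter is therefore no separate check on their calls. With 1 probe set per gene, 1451787_at alone was left for Cyp2b10. The block by treatment and number and the fits on 2 groups alone were chosen after seeing the data.

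The number of probe sets called in hepatocytes was 9, and it was 5 with 1 probe set per gene and 5 without an intensity trend. With 1 array left out it ran from 4 (without vehicle array 2 or treated array 2) to 13. With the replicate block it was 7, and the blocks by replicate number changed no Cyp2b call but those given for the comparison under water. Between populations 17136 and 17598 probe sets were called under water and phenobarbital, and 9710 and 9967 with 1 probe set per gene, where fewer were tested. With the 2 vehicle groups alone the 1451787_at difference was −0.59 and was called.

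For the difference of effects, leaving out 1 array gave 0 to 3 called probe sets and 1451787_at values from 4.12 to 5.08. Without mesenchymal treated array 1 the 3 called were those of Cyp2b10. Without hepatocyte treated array 1 or 3, 1 was called, and it was not a Cyp2b probe set. Signs turned with 1 array left out for Cyp2b9 in mesenchymal cells (−0.010 to 0.17), Cyp2b13 there (−0.044 to 0.11) and the hepatocyte marker mean (−0.029 to 0.67). Cyp2b9 and Cyp2b13 lay below the 40th percentile on all arrays but treated hepatocyte array 2, so their signal was low. The same limit held for 1422257_s_at and 1425645_s_at on the vehicle arrays of both populations, which the comparison under water uses.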
